A study of Mus musculus with 3 samples.

Results

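The Zfp zinc finger genes of B16 cells were described across a short course of doxorubicin. B16 is a mouse melanoma cell line, and doxorubicin is an anthracycline drug that slips between DNA bases and traps topoisomerase II on DNA. Per the labels, cells grown in serum-containing medium received 1 µg/ml doxorubicin, and total RNA was taken at 0, 2 and 4 h. Each time point was measured on 1 Affymetrix Mouse430_2 array, so there were 3 arrays, no replicates and no untreated culture at 2 or 4 h. Members were chosen by symbol and by signal: the annotated symbol begins with Zfp and a digit, the RNA-decay genes Zfp36, Zfp36l1, Zfp36l2 and Zfp36l3 are left out, and the mean deposited signal over the 3 arrays is at least 60. This gave 137 genes on 184 probe sets, of 9930 genes that passed the same signal filter. The array carried 333 matching symbols on 616 probe sets, and the 196 genes under the filter are not members.

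Zfp is the mouse symbol for zinc finger protein genes, most of which encode chains of C2H2 fingers, small folds held by a zinc ion that each read a few bases of DNA. Many of these proteins also carry a KRAB domain, which binds the corepressor TRIM28 and through it brings the histone methyltransferase SETDB1 and heterochromatin proteins to transposable elements and other targets. Others activate or repress promoters without a KRAB domain, and some bind RNA or act in ribosome assembly, ubiquitin transfer or the spindle. KRAB zinc finger genes often lie in genomic clusters of related copies, and their transcripts are generally scarce.

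With 1 array per time point, no spread between cultures could be measured and no test was made. A gene was counted as lower or higher where its signal differed at least 2-fold, a log2 ratio of 1 in size, and counts are read against the share of all genes that differed as much. Signals under 30 were set to 30 before log2 was taken, so a ratio to such a signal is a bound, written as "at least". A gene's ratio is that of its brightest passing probe set. The error printed beside it, where there are several, is the SD of log2 ratios over all its passing probe sets, which leaves out variation between cultures and depends on the floor where a probe set lies under it. Doxorubicin and time in culture cannot be told apart, and less RNA per cell cannot be told apart from fewer cells of a kind. Per the file headers, the 4 h array was also hybridised in a later fluidics run than the arrays at 0 and 2 h, so for that array the run and the time cannot be told apart.

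The description field of the labels names bone marrow-derived macrophages and an ET treatment that they do not expand, so markers were read first. Of 14 pigment cell markers on the array, 14, 12 and 13 reached a signal of 60 at 0, 2 and 4 h, and their summed signal was 55131, 55971 and 57047. Their median signal was 2247, 726 and 425, and of the 12 passing markers 4 had at 4 h a signal lower by 2-fold or more, namely Sox10 (log2 ratio -3.71), Mitf (-3.15), Mc1r (-1.73) and Rab38 (-1.06). The melanosomal enzyme Tyrp1 had signals of 12770 to 14138. The markers that did not pass the filter were Tyr (66.3, 50.9 and 42.6) and Oca2 (62.5, 44.6 and 62.1). For 12 macrophage markers these numbers were 5, 4 and 4, with summed signals of 1196, 1496 and 1594, and medians of 58.3, 40.9 and 31.0. Of these, Cd68 (565, 913 and 1110), Csf1r (157, 127 and 113), Lyz2 (111, 124 and 119), Adgre1 (90.6, 59.1 and 90.2) and Cd14 (64.5, 80.5 and 45.3) passed the filter, whereas Itgam, Ptprc and Marco were under 30 on every array. The part of these marker differences in the results was not tested. Of the 8 fibroblast, 6 endothelial and 5 lymphocyte markers on the array, 3, 1 and 2 reached 60 at 0 h.

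Most Zfp members had a log2 ratio below 0 in doxorubicin, and a minority were at least 2-fold lower. At 2 h, 30 of the 137 members (21.9%) were at least 2-fold lower than at 0 h, against 6.47% of all 9930 genes, and 2 members were at least 2-fold higher, against 1.65% of all genes. At 4 h, 55 members (40.1%) were at least 2-fold lower, against 15.2% of all genes, and 4 were at least 2-fold higher, against 2.5%. At 0, 2 and 4 h the median signal of the members was 163, 104 and 85.0, and that of all genes 244, 216 and 191. These medians do not compare amounts of transcript, because affinity varies from one probe set to another.

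The median log2 ratio of the members was -0.41 at 2 h and -0.82 at 4 h, beside -0.02 and -0.07 for all genes. Relative to the median of all genes it was -0.39 and -0.75. The middle range from the first to the third quartile ran from -0.85 to -0.08 at 2 h and from -1.37 to -0.28 at 4 h. A log2 ratio below 0 was found in 109 members at 2 h and in 116 at 4 h, which is 79.6% and 84.7%, beside 51.4% and 54.3% of all genes. Other scalings of the arrays moved the median log2 ratio of all genes by 0.17 and 0.31 (equal medians), 0.04 and 0.12 (quantile normalization) and -0.22 and -0.32 (spike-ins) at 2 and 4 h, so the relative medians are the ones to compare.

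**Figure D1:**
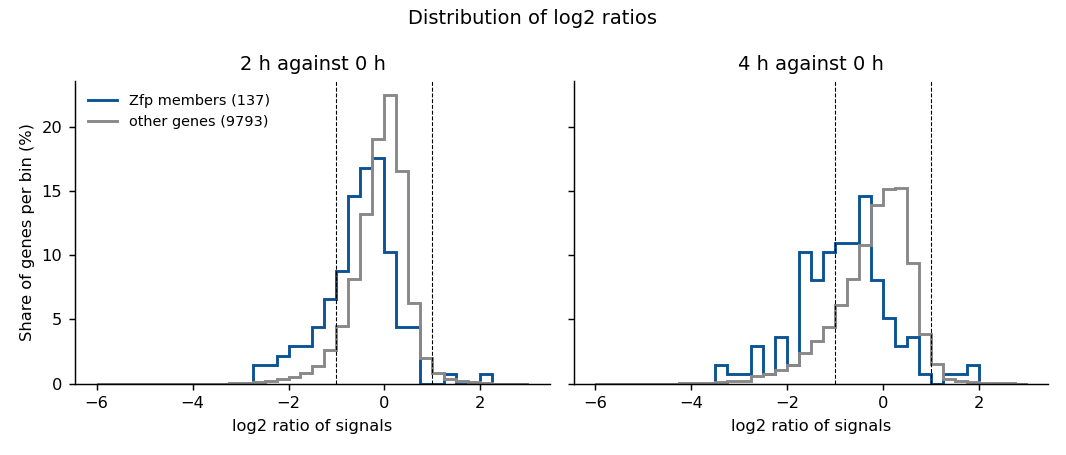
Distribution of log2 signal ratios for 2 h against 0 h (left) and 4 h against 0 h (right), as the share of genes per bin, for the 137 Zfp members (blue) and the 9793 other genes (grey), with dashed lines at a 2-fold difference. The members' curve lies left of that of the other genes in both panels, with medians of -0.41 and -0.82 beside -0.01 and -0.07 for the other genes.

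The signal was highest at 0 h in 104 members (75.9%), at 2 h in 19 and at 4 h in 14, while 42.5% of all genes were highest at 0 h. It was lowest at 4 h in 95 members (69.3%), at 2 h in 26 and at 0 h in 16, while 43.1% of all genes were lowest at 4 h. The ratios at 2 and 4 h share the array at 0 h, so their overlap is not given as a result. Between 2 and 4 h, 13 members were at least 2-fold lower, against 5.78% of all genes, and 1 was at least 2-fold higher, against 1.14%. That step had a median log2 ratio of -0.28 for the members and -0.06 for all genes.

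**Figure D2:**
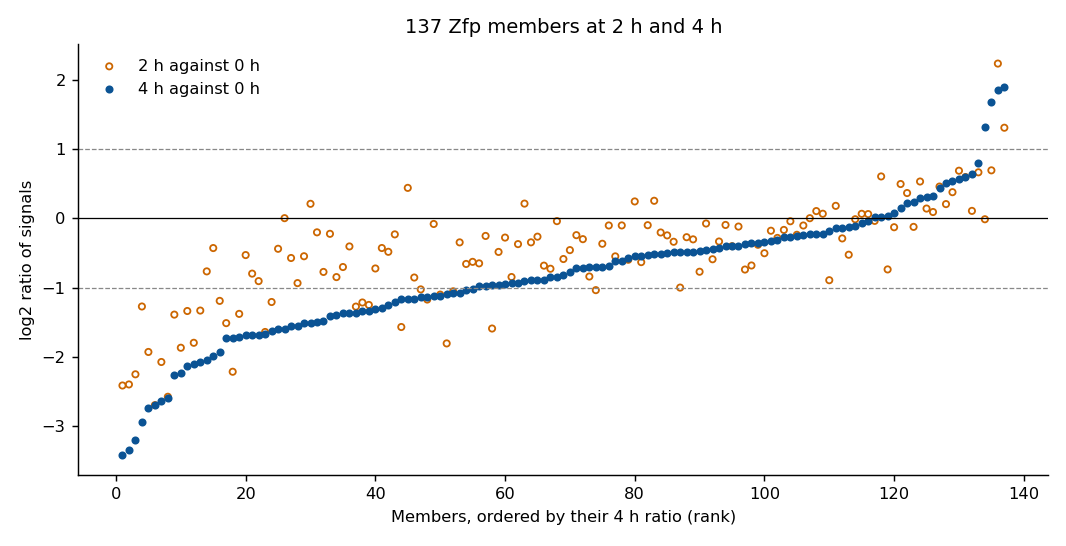
Log2 signal ratios of all 137 members at 2 h (open circles) and 4 h (filled circles) against 0 h, ordered by the 4 h ratio, with dashed lines at a 2-fold difference. The 4 h ratios run from -3.42, a bound set by the floor, to 1.90, 55 members lie at or under the lower line and 4 at or over the upper one, and both ratios share the array at 0 h.

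Zfp574, Zfp212 and Zfp623 were under the floor at 4 h, so their ratios there are bounds and have no order. The brightest probe set of Zfp574 had signals of 320.2, 60.2 and 6.43 at 0, 2 and 4 h, and the others had 244, 74.1 and 19.9, and 163, 17.1 and 13.7. All of its probe sets were thus highest at 0 h and lowest at 4 h, with a log2 ratio of -2.41 ± 0.41 at 2 h (SD over 3 probe sets) and a signal at least 10.7-fold lower at 4 h.

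Zfp212 had signals of 303, 57.5 and 10.2, at least 10.1-fold lower at 4 h. Zfp623 had 275, 57.8 and 14.1, at least 9.16-fold lower at 4 h. Both were already well below their 0 h signal at 2 h and lay under the floor at 4 h. Zfp9 was the 1 member under the floor at 2 h, with signals of 194, 6.65 and 21.4, at least 6.47-fold lower at both times. In all, 8 members (5.84%) were under the floor at 4 h, against 1.58% of all genes. At 0 h none was, against 0.352% of all genes.

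Zfp281, a factor that binds GC-rich promoters and acts in pluripotent cells, had signals of 308, 81.0 and 46.2. Its log2 ratios were -1.93 ± 0.43 at 2 h and -2.74 ± 0.09 at 4 h (SD over 2 probe sets), and 1 of its probe sets was under the floor at 4 h, so that SD depends on the floor. Zfp507 had signals of 425, 101 and 68.3, with ratios of -2.07 and -2.64. Zfp617 was already near the floor at 2 h, with signals of 187, 31.4 and 31.1, and its probe sets differed in size at 4 h (-2.59 ± 1.14, SD over 2 probe sets).

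Other members among the lowest at 2 h were Zfp647 (log2 ratio -2.21), Zfp770 (-1.87), Zfp81 (-1.80), Zfp282 (-1.80) and Zfp322a (-1.64). Zfp647 and Zfp81 were nearer to 0 at 4 h, at -1.72 and -1.09. The lowest at 4 h also included Zfp93 (-2.13), Zfp282 (-2.10), Zfp710 (-2.08), Zfp41 (-2.04), the pseudogene Zfp862-ps (-1.99) and Zfp955a (-1.92). For Zfp41 and Zfp862-ps most of the difference came after 2 h, where their ratios were -0.77 and -0.43.

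**Figure D3:**
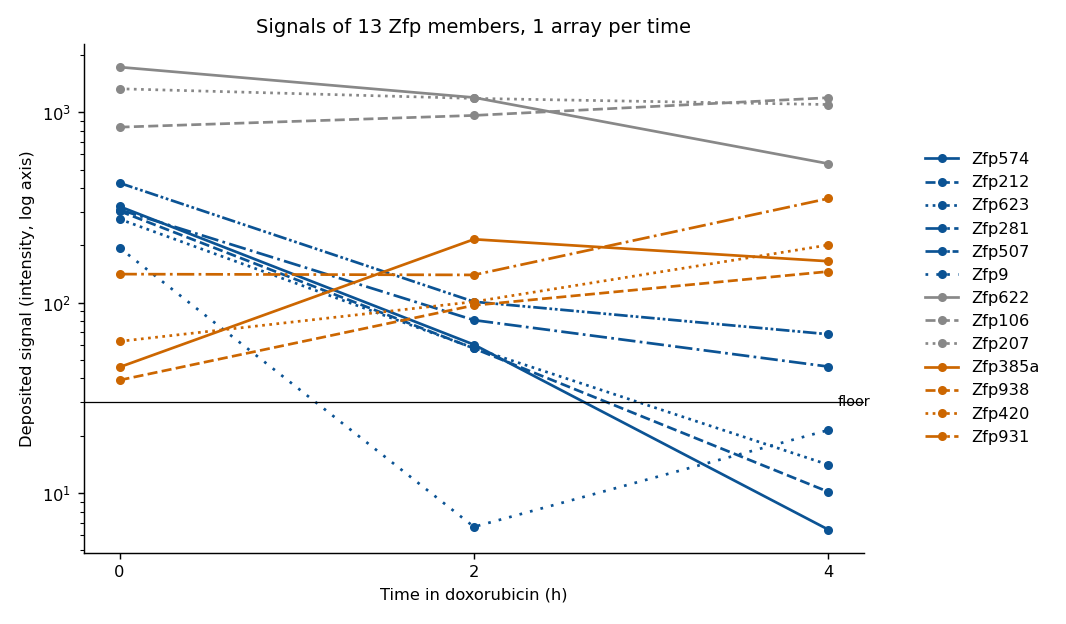
Deposited signals (log axis) of 13 named members at 0, 2 and 4 h, 1 array per time, with a line at the floor of 30. The 6 blue genes are among the lowest at 4 h, the 4 orange genes are those at least 2-fold higher at 4 h, and the 3 grey genes are bright members.

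The 4 members at least 2-fold higher at 4 h each rested on 1 passing probe set. Zfp385a, also called Hzf, a p53 target that steers p53 towards cell cycle arrest genes, had signals of 45.9, 215 and 165. It was 4.69-fold higher at 2 h and 3.60-fold higher at 4 h. Zfp938 had signals of 39.2, 96.8 and 146, 2.47-fold and 3.72-fold higher at 2 and 4 h.

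Zfp420, also called Apak, a KRAB protein known to hold back p53-driven apoptosis, had signals of 62.6, 101 and 201 and was 3.21-fold higher at 4 h. Its other probe set was under the floor on every array, with signals of 28.9, 10.7 and 1.94, and gave no ratio. Zfp931 had signals of 141, 140 and 352 and was 2.50-fold higher at 4 h, with no difference of that size at 2 h. The passing probe sets of Zfp420 and Zfp931 carry the _x_at suffix that the maker gives to probe sets whose probes match other transcripts too, so related genes may share these signals.

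Below 2-fold, the highest members at 4 h were Zfp326 (log2 ratio 0.79), Zfp444 (0.63 ± 0.05, SD over 2 probe sets), Zfp385b (0.60) and Zfp560 (0.57), followed by Zfp511 (0.54 ± 0.46, SD over 3 probe sets), Zfp106 (0.51 ± 0.35, SD over 3 probe sets), Zfp593 (0.44) and Zfp335 (0.32). The probe sets of Zfp511 and of Zfp106 did not all share a sign at 4 h. The passing probe set of Zfp593 carries the _x_at suffix. Its other probe set, under the filter, went the other way, with signals of 58.5, 9.08 and 5.79. A further probe set of Zfp444, also under the filter, stood at -1.02 at 4 h. At 2 h alone, Zfp27 (0.60), Zfp865 (0.53), Zfp398 (0.49 ± 0.58, SD over 2 probe sets) and Zfp128 (0.44) were among the highest. Zfp128 then had the opposite sign at 4 h, with signals of 70.7, 95.8 and 31.6. Zfp398 overlapped 0 within the spread of its probe sets.

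Members with roles in RNA, translation, the spindle and protein modification had ratios nearer to 0 than the members as a whole. Of 15 in this list, none was at least 2-fold lower at 2 h but 2 were at 4 h, while Zfp385a was higher at both times. The 13.3% at 4 h is near the 15.2% of all genes. The median ratio was -0.10 at 2 h and -0.35 at 4 h, and the difference from the other members was not tested. Lists were chosen with earlier results of these data known.

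Zfp622, a factor of late 60S ribosomal subunit assembly, had signals of 1726, 1195 and 537, the highest of any member at 0 h. Its log2 ratios were -0.53 ± 0.35 at 2 h and -1.68 ± 0.07 at 4 h (SD over 2 probe sets). The nucleolar protein gene Zfp330 had signals of 1008, 619 and 391 and a ratio of -1.37 at 4 h. These were the members of the list that were at least 2-fold lower.

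Zfp207, or BuGZ, which binds microtubules and the checkpoint protein BUB3, had signals of 1328, 1182 and 1097 and a ratio of -0.28 ± 0.36 at 4 h (SD over 2 probe sets), within the spread of its probe sets. The RNA-binding protein gene Zfp106 had 835, 962 and 1192. Zfp326, a subunit of a complex that links splicing with transcript elongation, had 120.5, 191 and 209. None of these genes was lower by 2-fold.

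Zfp91, a ubiquitin ligase, had a ratio of -0.40 ± 0.08 at 4 h (SD over 2 probe sets), and Zfp598, the ligase that marks collided ribosomes, one of -0.46. Zfp451, a SUMO ligase that assists removal of trapped topoisomerase II, had signals of 142.5, 109 and 112 and a ratio of -0.35 ± 0.76 at 4 h (SD over 3 probe sets). Its other passing probe sets stood at -1.68 and -1.66 at 4 h, so its probe sets differed by more than the ratio. Other members of this list were Zfp638 (-0.95 ± 0.00, SD over 2 probe sets) and Zfp830 (-0.88), both tied to splicing, Zfp131 (-0.44) and the double-stranded RNA-binding Zfp346 (-0.27 ± 0.52, SD over 2 probe sets).

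In the list of sequence-specific DNA-binding factors, at least 2-fold lower signals were found at 2 h in 4 of 18 members and at 4 h in 7, and none was higher at either time. These shares were 22.2% and 38.9%, against 6.47% and 15.2% of all genes. Their median ratio was -0.65 at 2 h and -0.85 at 4 h. Zfp24, which is needed for myelination, had signals of 387, 149 and 118, with ratios of -1.38 ± 0.38 and -1.71 ± 0.83 (SD over 5 probe sets), and at 4 h its probe sets did not all share a sign. The corepressor gene Zfp703 had 323, 217 and 110 and a ratio of -1.55. Zfp516, a factor of brown fat gene expression, had 169, 57.0 and 75.4 and ratios of -1.57 and -1.16.

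Zfp319 stood at -1.73 ± 1.12 at 4 h and Zfp592, a member of a chromatin reader complex with Zfp687, at -1.55 ± 0.86 (SD over 2 probe sets each). Zfp687 itself stood at -0.06, with signals of 163, 171 and 156. The GC-box binding factor Zfp148 had 354, 198 and 217 and a ratio of -0.70 ± 0.49 at 4 h (SD over 3 probe sets). Zfp384 had 776, 754 and 433, so its difference came after 2 h. Near 0 at 4 h were also Zfp277 (-0.03) and Zfp219 (-0.25). Zfp292 stood at 0.03 ± 1.22 (SD over 2 probe sets), but its other passing probe set stood at -1.69. Apart from Zfp281 and Zfp335, given above, the remaining members of this list lay between Zfp280c (-1.16) and Zfp704 (-0.68).

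Of the 13 array genes listed as KRAB zinc finger genes with a described role, 6 were members. At 4 h, 3 of the 6 were at least 2-fold lower, against 15.2% of all genes, and Zfp420 was higher, with a median ratio of -1.06. Zfp110, whose protein binds the neurotrophin receptor p75, had signals of 148, 85.1 and 46.1 and a ratio of -1.68. Zfp568, which represses a placental Igf2 transcript, had 169, 98.6 and 60.1 and a ratio of -1.49. Zfp809, which silences retroviral DNA in embryonic cells, had 103, 66.7 and 71.2 and a ratio of -0.54, Zfp961 had -0.96, and Zfp128, given above, had -1.16.

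Zfp57, which keeps imprints together with Zfp445, was not a member, with signals of 13.0, 11.3 and 10.8. Zfp445 had 221, 119 and 193, with ratios of -0.89 ± 0.29 and -0.19 ± 0.35 (SD over 3 probe sets). Its other probe sets stood at -0.83 and -0.74 at 4 h. In the list of embryonic cell genes 3 of 6 were members, namely Zfp322a (-1.67 ± 0.12 at 4 h, SD over 2 probe sets), Zfp532 (-1.29) and Zfp296 (-0.49). The pluripotency marker Zfp42 was listed at 5.97, 20.5 and 2.10.

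**Figure D4:**
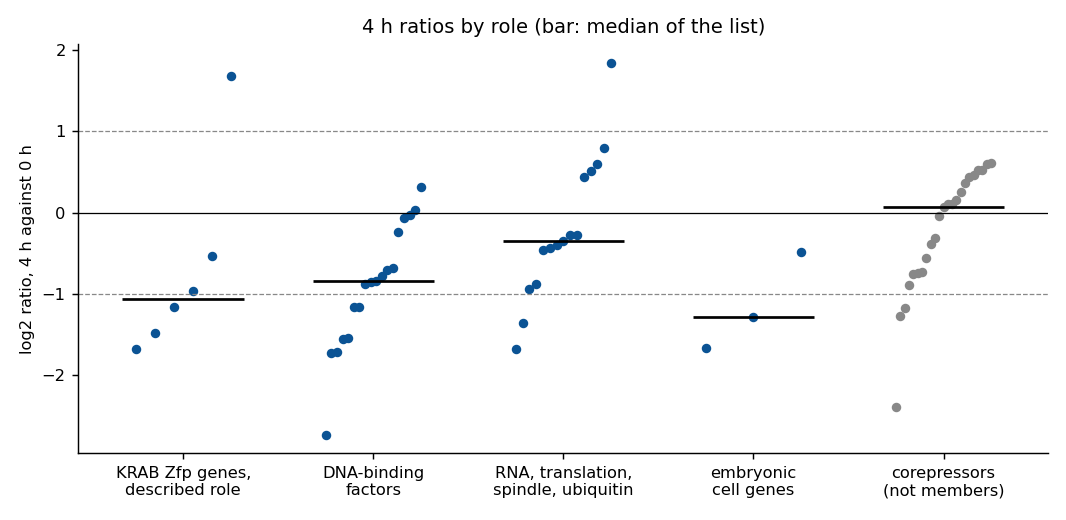
Log2 ratios at 4 h against 0 h for members in the 4 role lists (blue) and for the corepressor genes that are not members (grey), each point a gene and each bar the median of the list. Medians are -1.06, -0.85, -0.35 and -1.29 for the member lists and 0.07 for the corepressors.

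The genes for the proteins that KRAB domains recruit had ratios nearer to 0, a difference that was not tested. Of 24 such genes on the array 23 passed the filter. The number at least 2-fold lower was 2 at 2 h and 3 at 4 h (8.70% and 13.0%, near the 6.47% and 15.2% of all genes), no gene was 2-fold higher, and the median ratio was -0.06 at 2 h and 0.07 at 4 h. Trim28, the corepressor itself, had signals of 4605, 4213 and 3700, and its ratios were -0.13 ± 0.12 and -0.32 ± 0.07 (SD over 2 probe sets). Setdb1 had 390.0, 287 and 232, and its ratios were -0.44 ± 0.24 and -0.75 ± 0.34 (SD over 2 probe sets).

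Atf7ip, which stabilises SETDB1, was the lowest of them, with signals of 212, 105 and 40.2, and its ratios were -1.02 ± 0.13 and -2.40 ± 0.85 (SD over 2 probe sets). Mphosph8, a subunit of the HUSH silencing complex, stood at -1.30 ± 0.03 and -0.76 ± 0.12 (SD over 2 probe sets). The others at least 2-fold lower at 4 h were the ATPase gene Morc3 (-1.27) and the NuRD subunit gene Mta2 (-1.18). The heterochromatin protein genes Cbx1 and Cbx5 were at 0.11 ± 0.55 and -0.04 ± 0.26 (SD over 4 probe sets each).

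Members had lower signals than most genes, and the share at least 2-fold lower varied with signal, so members were set beside other genes of like signal. In each of 4 bins of mean signal, a larger share of the members was at least 2-fold lower. From the dimmest bin to the brightest, the share of other genes lower at 4 h was 18.4%, 22.2%, 22.0% and 12.7%. In the dimmest bin, with mean signals of 60.1 to 86.3, 13 of 34 members (38.2%) were lower at 4 h, against 18.4% of 1545 other genes. In the brightest, from 175 to 1202, 12 of 35 members (34.3%) were lower, against 12.7% of 4620 other genes. The median 4 h ratio in the brightest bin was -0.70 for members and -0.03 for the others.

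**Figure D5:**
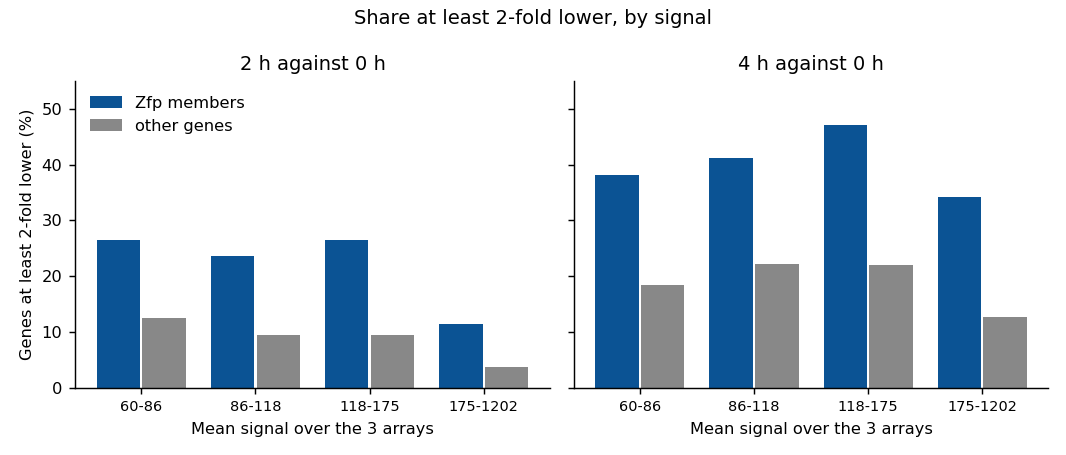
Share of genes at least 2-fold lower at 2 h (left) and 4 h (right) against 0 h, for Zfp members (blue, 34 or 35 genes per bin) and other genes (grey), in 4 bins of mean signal. Bars start at 0, and the blue bar is the higher of the pair in each bin, for example 47.1% and 22.0% at 4 h in the third bin.

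Members that just met the signal threshold were Zfp939, Zfp704 and Zfp825, with mean signals of 60.1, 61.1 and 61.7. Zfp385c, Zfp953 and Zfp952 just missed it, at 59.5, 59.5 and 59.4. Among the 196 genes under the filter the median mean signal was 24.0, and 69 were under 30 on every array. Since the filter uses the mean over the arrays, a gene may pass through its 0 h signal alone: 13 members (9.49%) were under 60 at both 2 and 4 h, beside 1.95% of all genes, and 3 members were under 60 at 0 h, beside 3.18%. The members under 60 at 0 h were Zfp385a, Zfp385b and Zfp938. Counts without the filter are given with the other settings. A further 12 probe sets over the filter matched several symbols with a Zfp gene among them and were left out.

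Agreement between probe sets could be read for the 35 members with at least 2 passing ones. The pooled SD of log2 ratios over their probe sets was 0.45 at 2 h and 0.59 at 4 h, beside 0.42 and 0.49 over the 4026 genes of the whole array with several. All probe sets shared a sign in 26 members at 2 h and in 29 at 4 h. Of 15 such members that were at least 2-fold lower at 4 h, 14 had the same sign in all probe sets and 7 were 2-fold lower in all of them. Among all genes with several probe sets, 554 were as low at 4 h. Of these, 492 had the same sign in all probe sets and 257 were 2-fold lower in all of them. The 7 members, named after their values were seen, were Zfp213, Zfp281, Zfp322a, Zfp574, Zfp608, Zfp622 and Zfp655.

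The symbol rule does not use genome position. In the RefSeq gene table of GRCm38.p6 the members lay on 20 chromosomes, with 33 on chromosome 7. At 4 h, 13 of these 33 were at least 2-fold lower. The number was 7 of 11 on chromosome 6 and 4 of 10 on chromosome 17. It was 7 of 8 on chromosome 15, 6 of 8 on chromosome 8 and 6 of 7 on chromosome 18. On each of chromosomes 2 and 13 it was 2 of 8, and on chromosome 9 none of 8. Chromosomes with fewer members are not listed. Over all members the share was 40.1% and over all genes 15.2%, and these small counts were not tested. Members that were next to each other among protein-coding genes formed 12 runs with 28 genes in all.

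In 8 of the 12 runs every gene had a ratio below 0 at 4 h, in 1 every gene was above 0, and in 3 the signs differed. Of the runs, 10 were pairs, and 84.7% of all members had a ratio below 0 at 4 h. This count is therefore not a result about neighbours. The longest run held 5 genes on chromosome 6. Of these, Zfp212 is described above, Zfp282, a DNA-binding repressor, had signals of 271, 78.0 and 63.1, Zfp956 had 100.3, 44.5 and 45.8, and Zfp777 had 209, 97.7 and 96.1. These genes were all at least 2-fold lower at both times. Zfp398, at one end of the run, had signals of 170, 239 and 187 and a ratio of 0.14 ± 0.56 at 4 h (SD over 2 probe sets), so neighbours did not all share a course.

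The promoters of this run are shown because the genes lie side by side and most were lower together, beside those of Zfp281, among the lowest members, and Zfp385a, the highest at 2 h. Each is the window from 250 bases before to 50 after a RefSeq start in GRCm38.p6, on the strand of the gene. Capitals mark GC boxes (GGGCGG) and CCAAT boxes (CCAAT) on either strand, and boxes do not overlap, apart from 1 pair in the Zfp777 window. Windows are chr6:47835411-47835710 (+) for Zfp398, chr6:47877305-47877604 (+) for Zfp282, chr6:47920318-47920617 (+) for Zfp212, chr6:47953140-47953439 (+) for Zfp956, chr6:48047745-48048044 (-) for Zfp777, chr1:136624651-136624950 (+) for Zfp281 and chr15:103340037-103340336 (-) for Zfp385a.
Zfp398: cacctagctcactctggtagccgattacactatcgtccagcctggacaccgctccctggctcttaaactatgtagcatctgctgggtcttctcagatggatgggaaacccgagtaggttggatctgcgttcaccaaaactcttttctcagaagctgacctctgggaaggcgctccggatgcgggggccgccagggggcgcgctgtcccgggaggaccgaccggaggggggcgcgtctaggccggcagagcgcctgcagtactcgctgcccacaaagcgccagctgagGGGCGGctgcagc
Zfp282: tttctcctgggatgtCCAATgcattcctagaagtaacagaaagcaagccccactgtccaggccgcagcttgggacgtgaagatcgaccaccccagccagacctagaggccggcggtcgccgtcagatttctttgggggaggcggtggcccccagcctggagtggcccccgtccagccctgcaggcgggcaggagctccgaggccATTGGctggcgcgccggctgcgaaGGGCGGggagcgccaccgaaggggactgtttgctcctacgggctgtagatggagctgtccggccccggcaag
Zfp212: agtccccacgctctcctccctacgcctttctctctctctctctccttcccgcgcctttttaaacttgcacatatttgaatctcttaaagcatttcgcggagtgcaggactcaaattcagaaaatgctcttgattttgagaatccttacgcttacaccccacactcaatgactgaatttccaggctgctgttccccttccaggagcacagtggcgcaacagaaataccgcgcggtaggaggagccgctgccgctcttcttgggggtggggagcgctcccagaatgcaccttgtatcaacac
Zfp956: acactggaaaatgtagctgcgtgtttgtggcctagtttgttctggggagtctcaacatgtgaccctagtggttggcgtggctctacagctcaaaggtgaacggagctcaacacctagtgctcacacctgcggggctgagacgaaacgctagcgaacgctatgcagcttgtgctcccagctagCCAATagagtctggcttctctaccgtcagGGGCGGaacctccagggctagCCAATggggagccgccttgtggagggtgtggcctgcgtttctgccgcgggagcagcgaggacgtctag
Zfp777: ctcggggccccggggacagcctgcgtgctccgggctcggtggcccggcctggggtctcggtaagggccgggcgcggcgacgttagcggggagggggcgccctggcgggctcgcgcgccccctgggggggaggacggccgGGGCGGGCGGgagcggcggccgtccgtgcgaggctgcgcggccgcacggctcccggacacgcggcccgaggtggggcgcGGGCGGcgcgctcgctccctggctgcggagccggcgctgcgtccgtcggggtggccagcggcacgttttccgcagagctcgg
Zfp281: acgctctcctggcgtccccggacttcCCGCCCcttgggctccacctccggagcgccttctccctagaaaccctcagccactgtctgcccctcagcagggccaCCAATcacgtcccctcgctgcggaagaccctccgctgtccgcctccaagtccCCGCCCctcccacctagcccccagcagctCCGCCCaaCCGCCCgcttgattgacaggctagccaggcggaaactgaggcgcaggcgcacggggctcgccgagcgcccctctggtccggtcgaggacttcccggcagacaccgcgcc
Zfp385a: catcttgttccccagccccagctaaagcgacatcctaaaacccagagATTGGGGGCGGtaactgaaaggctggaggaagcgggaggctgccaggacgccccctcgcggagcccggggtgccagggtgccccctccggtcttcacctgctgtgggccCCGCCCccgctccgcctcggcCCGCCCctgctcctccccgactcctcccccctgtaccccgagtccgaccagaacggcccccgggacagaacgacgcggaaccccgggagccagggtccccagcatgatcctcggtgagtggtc

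Within the run, the Zfp212 window held neither box, that of Zfp777 held 3 GC boxes, and those of Zfp282 and Zfp956 held 1 GC box and 2 CCAAT boxes each. Zfp398 held 1 GC box, Zfp281 held 4 and Zfp385a held 3. No box was thus common to the windows of the 4 genes of the run that were lower together. RefSeq windows were matched for 108 of the 137 members by symbol, and the first start listed was used.

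Of the 108 windows, 53.7% held a GC box, against 65.4% of the 8101 windows of genes over the filter and 35.9% of all 27025. A CCAAT box was found in 43.5%, against 38.4% and 37.9%, and a TATA box (TATAAA) in 8.33%, against 7.05% and 14.2%. In members at least 2-fold lower at 4 h, 20 of 35 windows held a GC box (57.1%) and 1 a TATA box (2.86%), against 38 of 73 (52.1%) and 8 (11.0%) in the other members. The median share of G and C was 59.0% and 58.7%. A match of letters is a description and not a binding site.

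Gene length was also set beside the ratios, from the genomic span in the RefSeq table. The median span was 17.3 kb for members and 23.3 kb for other genes. Members of up to 10 kb were at least 2-fold lower at 4 h in 48.1% of 27 genes, and those over 40 kb in 37.5% of 24, against 14.1% and 16.8% of other genes of these lengths. Spearman's rho between span and the 4 h ratio was 0.12 over the 137 members and -0.09 over 9782 other genes. Genes on the same arrays are not independent, so these values are descriptions.

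Other families of C2H2 zinc finger genes were set beside the members as the most similar sets. Among 30 Zbtb genes, which carry a BTB domain beside their fingers, 7 at 2 h (23.3%) and 8 at 4 h (26.7%) were lower by 2-fold or more, beside 21.9% and 40.1% of the Zfp members and 6.47% and 15.2% of all genes, with median ratios of -0.39 and -0.55. For 12 Klf genes these numbers were 2 (16.7%) and 4 (33.3%), with medians of -0.40 and -0.89. The 5 Zscan and 4 Zkscan genes had medians of -0.62 and -0.90 at 4 h. All of these medians lay below those of all genes, and no difference between the families and the Zfp members was tested.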

How the data were processed

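RNA of B16 cells at 0, 2 and 4 h of doxorubicin was measured on 1 array each. Each deposited value is the intensity of a probe set, on a linear scale. Per the submitters' processing notes, GCOS 1.4 was used, with a signal method not given in the sources used here. Scaling had been done before deposit, since the 2% trimmed mean of all 45101 probe sets is 150.0 on each array. Deposited intensities below a floor of 30 were raised to it before log2. Probe sets with 1 symbol in the platform annotation (34958 of 45101) and a mean signal of at least 60 were kept, and the brightest stood for its gene. All 137 members kept their symbol when updated by Entrez ID to RefSeq.

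No test was possible with 1 array per time. Named genes were the 12 highest and 12 lowest members above the floor at each time, up to 3 bounds per direction, the 10 brightest, the 5 with most probe sets and all members of the role lists. Members and lists were chosen with earlier results of these data known. Counting was tested on simulated data. No protein sequences were used here, so grouping by domain or finger number was not made. Computation used scipy 1.17.1, pandas 2.3.3 and numpy 2.4.6 under Python 3.11.15, with plots from matplotlib 3.10.9.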

Additional observations from a re-analysis of the deposited data

How the results depend on the processing

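The direction of the members' shift relative to all genes was the same in all settings tried. These were 3 other scalings, floors of 15 and 60, an offset of 15, no filter, a minimum of 120 and averages over probe sets. Probe sets without _x_at, _s_at or _a_at suffixes and RefSeq symbols were also tried. Ratios centred on other genes of like signal were chosen after seeing the data. Equal medians and spike-in scaling multiply a whole array by 1 factor, so agreement there was fixed in advance. With both, the relative median stayed at -0.39 at 2 h and -0.75 at 4 h. At 4 h the number at least 2-fold lower was 39 with equal medians, 40 with quantile normalization, 76 with spike-in scaling and 42 when centred by signal, against 55, and the share of all genes was 9.69%, 11.0%, 23.4% and 12.1%. Without a filter 52 of 333 matching genes were lower at 2 h and 83 at 4 h, against 5.72% and 10.9% of all genes, and with a filter of 120 it was 13 and 28 of 68, against 4.42% and 13.0%. At a size of 4-fold, 7 members were lower and 1 higher at 2 h, and 14 lower and 0 higher at 4 h, while 0.967% and 3.39% of all genes were lower. The number higher at 2 h was 1 with a floor of 60 and 1 with a filter of 120, and the number higher at 4 h was 2 without suffixed probe sets. The relative median at 2 h was -0.27 with quantile normalization and -0.12 without a filter. At 4 h it was -0.55 with quantile normalization, -0.60 with a floor of 60, -0.32 without a filter and -0.61 when centred by signal. Of 55 members lower at 4 h, 32 were 2-fold lower in every scaling, floor, filter and probe set choice that kept them. All 55 kept their sign, which selection for a 2-fold size made likely. For 52 ratios of named members, 29 of 490 alternative values moved by more than the pooled probe set SD. Of the moved values, 14 came with a floor of 60. None with a 2-fold size changed sign, which that size made likely too. A filter of 120 and the suffix rule leave out some named members, which then have no value. No paired analysis was possible because there is 1 array per time point, and no replicate could be left out. Signals near the floor limit the size of the lowest ratios. With 3 arrays in all, precision is limited by their number.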
